A study of Mus musculus with 16 samples.

Results

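The genes described here are 33 genes of cholesterol and fatty acid synthesis: 18 enzymes that build sterols from acetyl-CoA, 6 regulators and carriers of the sterol pathway, and 9 genes that make, elongate or desaturate fatty acids. They were chosen by gene symbol from textbook pathway membership, and all 33 were found among the 34042 genes of the count table. Every one of the 33 passed the filter on low counts, which kept 18555 genes. RNA was measured by directional RNA-seq in 16 libraries of mouse pluripotent stem cells, grown as 5 lines. Formative stem cells (FS cells), which represent the epiblast between the naive and the gastrulating stage, were grown in A3XR medium as 2 lines: 5ar1, sampled at passages 10, 12 and 14, and 5ar3, sampled at passages 4, 5 and 12. Epiblast stem cells (EpiSCs), which represent a later and primed epiblast, were line AFX6 in AFX medium at passages 5, 8 and 12 and line AF32 in AF medium at passages 13, 14 and 15. Naive embryonic stem (ES) cells were line E14IV-C in 2iL medium at passages 12, 13, 15 and 20. By the usual meaning of these names, AF is activin with FGF, X is an inhibitor of Wnt signalling, R is an inhibitor of retinoic acid signalling, and 2iL blocks MEK and GSK3 and adds LIF, so the A3XR, AFX and AF media share activin. Only the FS medium had more than 1 line, so for EpiSCs and ES cells the line and the medium cannot be told apart. The libraries of a line are different passages of that line, and p-values measure only the spread between such libraries.

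Cells make cholesterol from acetyl-CoA through mevalonate, farnesyl pyrophosphate, squalene and lanosterol, and the genes of this path are known to be switched on together by the transcription factor SREBP2 when sterols in the endoplasmic reticulum run low. The related factor SREBP1 acts mainly on fatty acid genes. Both factors are held in the endoplasmic reticulum by the escort protein SCAP when it binds an INSIG protein, and INSIG1 is itself a target of SREBP, which closes a feedback loop. Stearoyl-CoA desaturases (SCD1 and SCD2) place a double bond in saturated fatty acids and are also known SREBP targets.

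The libraries held 22069338 to 33290250 counts. Mitochondrial ribosomal RNA took 11.05 to 27.76% of the counts in the libraries of the other lines and 19.43 to 20.56% in 3 ES libraries, but 40.1% in the ES library of passage 12, which stands apart. Levels are given as CPM, the read counts scaled to a common library size with TMM factors. Naive markers (Zfp42, Esrrb, Klf4, Tfcp2l1 and Tbx3) summed to 2169 to 3414 CPM in ES cells and to at most 12.62 CPM in any other library. Formative and later epiblast markers (Otx2, Pou3f1, Fgf5 and Dnmt3b) summed to 833.5 to 2246 CPM in the other 4 lines and to 39.6 to 102.8 CPM in ES cells, so the labels and these markers point the same way. The differences below are log2 fold changes from edgeR's quasi-likelihood test with 1 mean per line, and a gene is called when its Benjamini-Hochberg adjusted p over all 18555 genes is under 0.05.

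Insig1 was nearly silent and Scd1 was low in FS line 5ar1 and in EpiSC line AF32. Both were well expressed in the other 3 lines. Insig1 (ENSMUSG00000045294, plus strand of chr5:28071363-28078662 in GRCm38) encodes the sterol-sensing retention protein that holds SCAP. Its levels in 5ar1 at passages 10, 12 and 14 were 1.26, 0.606 and 0.542 CPM, from 34, 19 and 16 counts. In 5ar3 at passages 4, 5 and 12 they were 74.6, 45.4 and 67.8 CPM. These libraries do not overlap, although both FS lines carry the same cell type and medium in the labels. In the EpiSC lines, AFX6 had 84.5, 66.0 and 83.3 CPM and AF32 had 2.83, 1.93 and 0.389 CPM, the last from 11 counts. The 4 ES libraries were the highest, at 173, 201, 174.5 and 189.9 CPM. No library of 5ar1 or AF32 reached the lowest library of the other lines, so the groups of high and low lines are fully separate.

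The mean of Insig1 was 0.803 ± 0.398 CPM (SD, n = 3) in 5ar1 and 62.6 ± 15.3 CPM (SD, n = 3) in 5ar3, a ratio of 78.0 between the means. The log2 difference of 5ar1 against 5ar3 was -6.29 (SE 0.47, edgeR adjusted p = 2.13e-06). Only 9 of the 18555 genes were more strongly lowered in 5ar1, since Insig1 had rank 10. Between the EpiSC lines, the mean was 78.0 ± 10.4 CPM (SD, n = 3) in AFX6 and 1.72 ± 1.23 CPM (SD, n = 3) in AF32. The log2 fold change of AFX6 against AF32 was 5.49 (SE 0.44, edgeR adjusted p = 1.19e-06), rank 17 among the genes higher in AFX6. Against ES cells, at 184.6 ± 13.2 CPM (SD, n = 4), Insig1 was called lower in all 4 lines, by a log2 difference of -7.85 in 5ar1, -1.56 in 5ar3, -1.24 in AFX6 and -6.73 in AF32. The comparisons within the low pair and within the high pair were not called: 5ar1 against AF32 gave -1.12 (SE 0.47, edgeR adjusted p = 0.114) and 5ar3 against AFX6 gave -0.32 (SE 0.35, edgeR adjusted p = 0.667). Without the AF32 library of passage 15, which holds 11 counts, 5ar1 was called lower than AF32, at -1.58 (edgeR adjusted p = 0.00393). In bulk RNA, fewer cells that express a gene and less RNA per cell cannot be told apart.

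Scd1 (ENSMUSG00000037071, minus strand of chr19:44394455-44407879) had the same order of lines. It was at 2.00, 3.47 and 3.11 CPM in 5ar1 at passages 10, 12 and 14 and at 52.2, 40.9 and 152 CPM in 5ar3 at passages 4, 5 and 12. The passage 12 library of 5ar3 was well above the other 2 of that line, and all 3 were above every 5ar1 library. AFX6 had 188, 176 and 196 CPM, AF32 had 8.45, 6.83 and 3.93 CPM, and ES cells had 381, 513, 464.5 and 439 CPM. Again the low lines and the high lines do not overlap. The log2 difference of 5ar1 against 5ar3 was -4.83 (SE 0.44, edgeR adjusted p = 7.1e-06), and the ratio of the means was 28.5. The log2 fold change of AFX6 against AF32 was 4.86 (SE 0.43, edgeR adjusted p = 3.83e-06), and the ratio of the means was 29.2. Scd1 was called lower than in ES cells in all 4 lines, at -7.29 in 5ar1, -2.46 in 5ar3, -1.27 in AFX6 and -6.13 in AF32. The call of AFX6 against ES cells was lost when passage number entered the fit, with a log2 difference of -0.69 (edgeR adjusted p = 0.159). For 5ar1 against AF32, the difference of -1.16 (SE 0.40) missed the threshold with an edgeR adjusted p of 0.0588. For 5ar3 against AFX6 it was -1.19 (SE 0.37, edgeR adjusted p = 0.0517), and without the 5ar3 library of passage 12 it was called, at -1.996 (edgeR adjusted p = 0.000276).

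**Figure D1:**
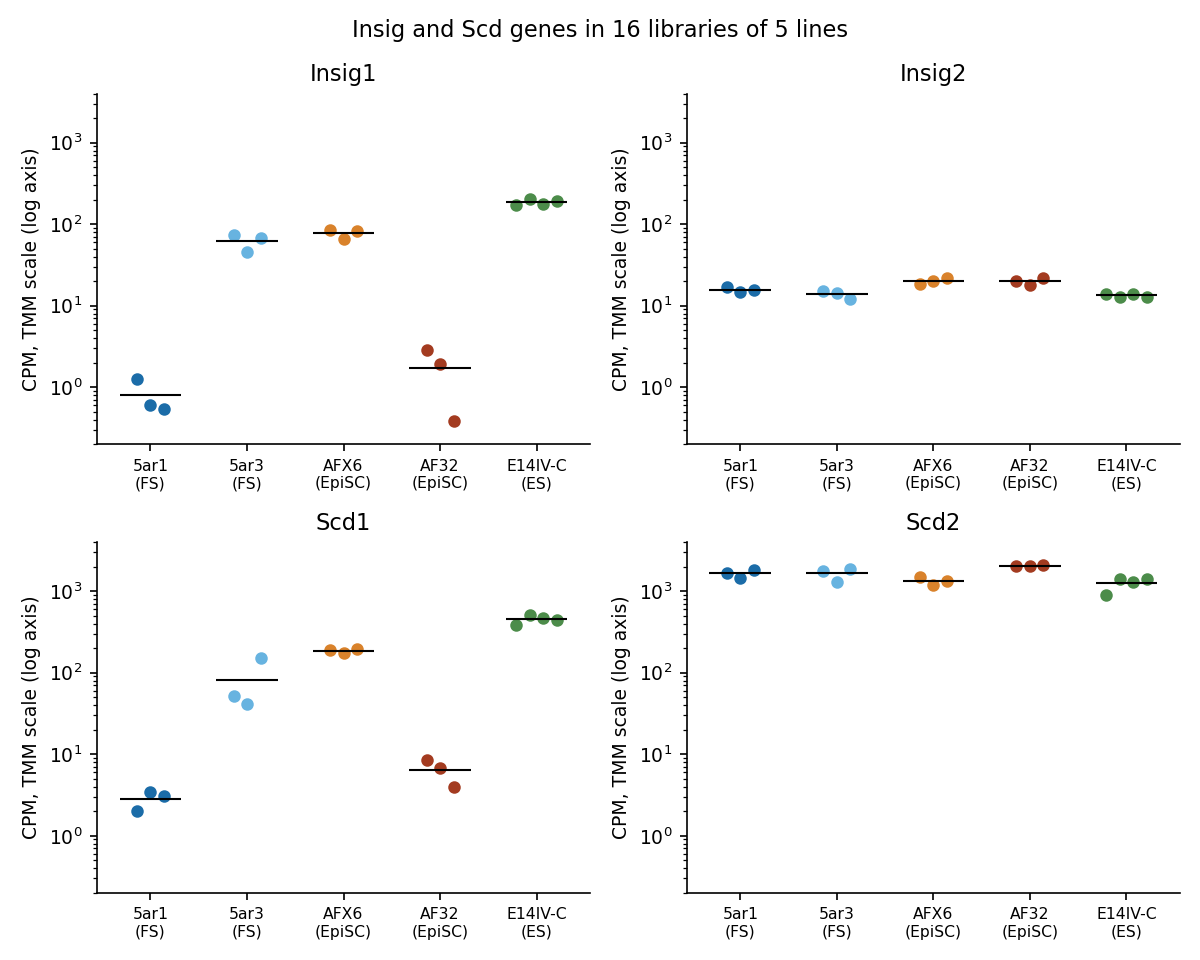
Levels of Insig1 and Scd1 and of their paralogs Insig2 and Scd2 in each of the 16 libraries (CPM on a log axis) by line, with each point 1 library and each bar a line mean. Insig1 and Scd1 are low in 5ar1 and AF32, while the line means of Insig2 span 13.4 to 20.2 CPM and those of Scd2 span 1248 to 2052 CPM.

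The paralogs of these genes did not show the pattern. Insig2, which encodes the other INSIG protein, had line means of 15.7 CPM in 5ar1, 13.8 in 5ar3, 20.2 in AFX6, 19.9 in AF32 and 13.4 in ES cells. Scd2, the desaturase gene 87.6 kb from Scd1 on chromosome 19, had line means of 1644 CPM in 5ar1, 1645 in 5ar3, 1335 in AFX6, 2052 in AF32 and 1248 in ES cells. Insig2 was called in neither 5ar1 against 5ar3 (0.19, edgeR adjusted p = 0.549) nor AFX6 against AF32 (0.02, edgeR adjusted p = 0.981). Scd2 was not called between the FS lines either (edgeR adjusted p = 1). Between AFX6 and AF32, Scd2 was called in the direction opposite to Scd1, at -0.62 (SE 0.18, edgeR adjusted p = 0.0486), a call lost in 8 of 14 alternative settings. Per kilobase of exon, the mean of Scd1 was 0.585 CPM in 5ar1, 1.31 in AF32 and 91.9 in ES cells, whereas that of Scd2 was 301 in 5ar1, 376 in AF32 and 228 in ES cells. Scd2 was thus the more abundant desaturase RNA per length in each of these lines.

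Few genes met a rule made from this pattern. The rule was set after the values of Insig1 and Scd1 were seen. A gene counted when it was called lower in both 5ar1 and AF32 against each of 5ar3, AFX6 and ES cells. The rule needs 6 calls at once, so a small share follows from its design, and no other split of the lines was counted. Of 18555 genes 6 met it (0.0323%): Insig1, Scd1, Pcsk1, which encodes a prohormone convertase, the long non-coding RNA Pvt1, and the gene models Gm37784 and Gm44791. The weakest of the 6 log2 fold changes was -5.17 for Insig1, -4.88 for Gm37784 and -3.67 for Scd1, and nearer 0 for the other 3 genes. Gm37784 lies on chromosome 3 and averaged 0.0353 CPM in 5ar1, 0.0775 in AF32, 2.42 in 5ar3, 3.91 in AFX6 and 8.62 in ES cells. The opposite pattern, higher in both lines, was met by 2 genes (0.0108%), Gpr37 and 1700048O20Rik. Insig1 and Scd1 lie on different chromosomes, and the genes around them mostly did not move with them. Within 500 kb of Insig1, 9 other genes were tested, and Shh alone was called lower in 5ar1 than in 5ar3, at -5.19 (edgeR adjusted p = 0.0277), from a mean of 0.0494 CPM against 1.86. None of the 9 was called lower in AF32 than in AFX6, and 1, En2, was called higher. Within 500 kb of Scd1, 14 other genes were tested and none was called between 5ar1 and 5ar3. In AF32, 1 of the 14 was called lower than in AFX6 (Gm26644) and 2 were called higher (Cpn1 and Scd2).

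Markers of other cell types also differed between these lines. Of 5 tested neuroectoderm markers, 4 were called lower in 5ar1 than in 5ar3 (Sox1, Six3, Hesx1 and Lhx2), with Sox1 at a mean of 1.18 CPM in 5ar1 and 22.9 CPM in 5ar3. Endoderm markers (10 genes, 7 tested) summed to 241 to 705 CPM in AF32 and 1.83 to 154 CPM in AFX6, with 2 called, and to 0.701 to 1.33 CPM in 5ar1, with Afp, Ttr and Apob at 0, and 7.22 to 9.21 CPM in 5ar3, with 1 called. Primitive streak markers summed to 136 to 337 CPM in AF32 and to 14.95 to 43.4 in AFX6, with 3 of 5 tested genes called. Fibroblast markers summed to 43.8 to 89.5 CPM in AF32 and to 18.96 to 29.9 CPM in AFX6, with 3 of 7 called higher in AF32 and Thy1 called lower there. The part of these cells in the differences of Insig1 and Scd1 was not tested.

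The RefSeq promoter table (GRCm38.p6) held 34 windows for 26 of the 33 genes, each 300 bases long, from 250 before to 50 after the start site. Fdps, Fdft1, Sqle, Stard4, Scd1, Scd2 and Fads1 had no window. The window of Insig1 is shown because its RNA differed most between the FS lines. Those of Tm7sf2 and Ebp are shown because they were the other genes called there that had a window. That of Hmgcs1, chosen after its values were seen, is shown because it alone of the 34 held the core of the sterol regulatory element. Capitals mark matches to CCAAT, read as ATTGG on the other strand, to the E-box CACGTG and to TCACNCCAC, the core of the sterol regulatory element.
Insig1, chr5:28071162-28071461, plus strand: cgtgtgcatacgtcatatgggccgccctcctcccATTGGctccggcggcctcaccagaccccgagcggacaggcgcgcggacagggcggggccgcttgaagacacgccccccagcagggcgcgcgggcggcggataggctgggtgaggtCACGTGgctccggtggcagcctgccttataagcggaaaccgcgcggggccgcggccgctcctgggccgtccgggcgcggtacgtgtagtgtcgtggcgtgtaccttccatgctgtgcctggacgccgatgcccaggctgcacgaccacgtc
Tm7sf2, chr19:6067801-6068100, minus strand: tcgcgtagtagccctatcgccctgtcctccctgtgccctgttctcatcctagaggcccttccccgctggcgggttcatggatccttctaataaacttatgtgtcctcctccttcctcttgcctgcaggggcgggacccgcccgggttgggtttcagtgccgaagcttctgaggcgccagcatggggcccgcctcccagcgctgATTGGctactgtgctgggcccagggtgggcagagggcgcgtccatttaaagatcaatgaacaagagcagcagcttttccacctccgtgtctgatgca
Ebp, chrX:8193463-8193762, minus strand: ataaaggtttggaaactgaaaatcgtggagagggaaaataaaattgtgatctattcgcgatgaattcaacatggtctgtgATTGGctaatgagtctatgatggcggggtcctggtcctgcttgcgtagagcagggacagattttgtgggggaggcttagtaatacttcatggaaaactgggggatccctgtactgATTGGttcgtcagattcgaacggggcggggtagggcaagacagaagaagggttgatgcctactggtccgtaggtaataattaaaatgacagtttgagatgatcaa
Hmgcs1, chr13:119690101-119690400, plus strand: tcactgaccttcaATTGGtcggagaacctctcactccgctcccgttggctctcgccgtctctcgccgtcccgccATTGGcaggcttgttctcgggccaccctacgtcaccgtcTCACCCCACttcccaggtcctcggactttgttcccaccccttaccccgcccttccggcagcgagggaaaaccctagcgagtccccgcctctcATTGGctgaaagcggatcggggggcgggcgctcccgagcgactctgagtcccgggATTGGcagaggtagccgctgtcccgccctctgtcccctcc
Both strands were searched in all 32851 windows of the table. CCAAT was in 22 of the 34 windows (64.7%), which belong to 21 genes, and in 37.4% of all windows. CACGTG was in 6 of the 34 windows (17.6%), including that of Insig1, and in 7.15% of all. The longer textbook element, which is the core with an A before it, was in 0 of the 34 and in 0.234% of all, and the core was in 1 of the 34 (2.94%), that of Hmgcs1, and in 1.24% of all. A match describes the letters only, and windows of 1 gene can overlap.

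Sterol enzymes were higher in FS cells and EpiSCs than in naive ES cells. Of the 18, 15 were called higher in 5ar1, 13 in 5ar3, 15 in AFX6 and 14 in AF32, and 1 was called lower in each. Among all genes, 29.9% were called higher than in ES cells in 5ar1, 32.1% in 5ar3, 29.4% in AFX6 and 30.7% in AF32. The median log2 fold change of the 18 was 1.39 in 5ar1, 0.92 in 5ar3, 0.94 in AFX6 and 1.17 in AF32, where that of all genes was 0.02, 0.02, 0.01 and 0.01. These 4 comparisons share the ES libraries and are not independent of each other. Those called lower were 27.0, 28.9, 27.2 and 27.9% in the same order. Over all 33 genes, 20 were called higher and 4 lower in 5ar1 (56.8% of all genes called in either direction), 19 and 4 in 5ar3 (61.0%), 20 and 6 in AFX6 (56.6%) and 22 and 4 in AF32 (58.6%). The libraries did not overlap with those of ES cells for 26 of the 33 genes in 5ar1 (54.3% of all genes), 20 in 5ar3 (58.6%), 26 in AFX6 (58.7%) and 29 in AF32 (62.3%). Without the ES library of passage 12, the sterol enzymes called higher numbered 15, 14, 15 and 14 in the same order of lines. On total counts without TMM, the median of all genes moved to 0.41 in 5ar1, 0.35 in 5ar3, 0.25 in AFX6 and 0.29 in AF32, and the share of called genes that were higher rose from 52.6 to 71.5%, from 52.6 to 68.6%, from 51.9 to 64.5% and from 52.5 to 66.3%. Relative to that shift the sterol median stood at 1.39, 0.91, 0.91 and 1.15. Fibroblast markers summed to 5.32 to 5.47 CPM in ES cells, with Dcn at 0, and to 18.96 to 89.5 CPM in the other 4 lines, with 5 to 7 of 7 tested called higher in each, and their part in these differences was not tested.

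**Figure D2:**
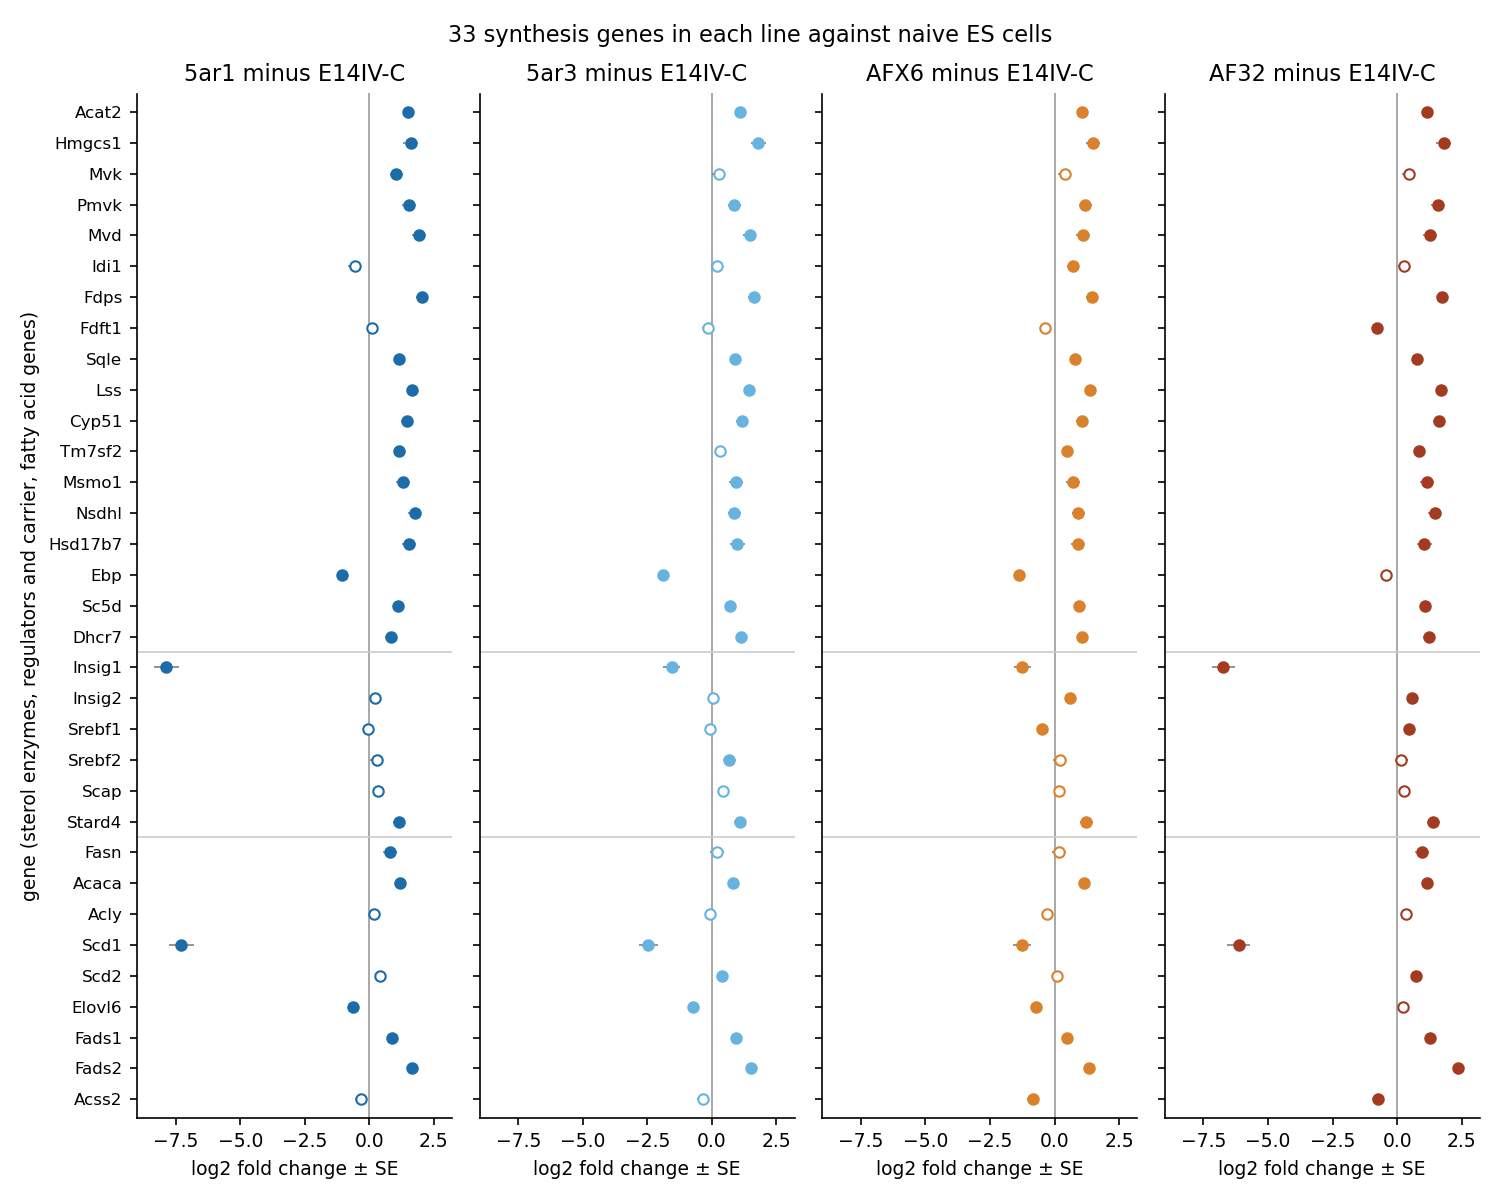
Log2 fold change against ES cells of each of the 33 genes (y axis, grouped by role) in the 4 other lines, with bars of 1 SE and filled points for genes called at an edgeR adjusted p under 0.05. Most sterol enzymes lie above 0 in all 4 lines, and Insig1 and Scd1 reach -7.85 and -7.29 in 5ar1.

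Summed over the 18 enzymes, the level was 1278 to 1546 CPM in the 4 ES libraries. In the other lines it was 2896, 2816 and 4897 CPM in 5ar1, 4400, 2573 and 2447 in 5ar3, 2836, 3341 and 2412 in AFX6 and 3654, 3301 and 3343 in AF32. Every one of these 12 libraries was above every ES library. The highest 2 were 5ar1 at passage 14 and 5ar3 at passage 4, and the other 2 libraries of each FS line lay close together. Hmgcs1 alone held 1862 of the 4400 CPM in 5ar3 at passage 4. It held 845 of 2573 at passage 5, 621 of 2447 at passage 12, and 1325 of 4897 in 5ar1 at passage 14. Without the passage 4 library, the sterol enzymes called higher in 5ar3 than in ES cells fell from 13 to 10. Without the passage 14 library, those in 5ar1 stayed at 15, with a median of 1.02 in place of 1.39.

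**Figure D3:**
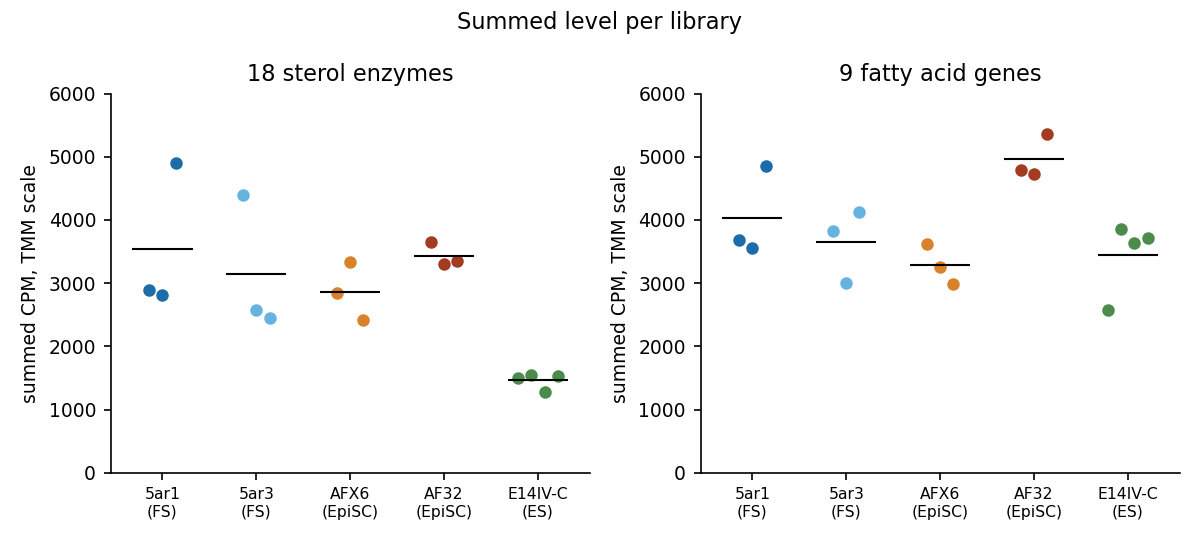
Summed level (CPM, linear axis from 0) of the 18 sterol enzymes and of the 9 fatty acid genes in each library by line, with bars at the line means. All 12 libraries of the other lines exceed the ES libraries for the sterol enzymes, whereas the fatty acid sums of ES cells, 2580 to 3859 CPM, overlap those of FS cells.

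Along the pathway, 13 sterol enzymes were called higher than in ES cells in all 4 lines: Acat2, which condenses acetyl-CoA, Hmgcs1, Pmvk and Mvd of the mevalonate path, Fdps, Sqle, Lss, Cyp51, Msmo1, Nsdhl, Hsd17b7, Sc5d and Dhcr7. With Stard4, Acaca, Fads1 and Fads2 this made 17 of the 33 genes, where 21.2% of all genes were called higher in all 4 lines. With passage number in the fit, 13 of the 33 genes and 10 of the 18 enzymes were called higher in all 4. The call of Msmo1 in AFX6 was lost in 6 of 15 alternative settings, and those of Pmvk, Sc5d and Msmo1 in 5ar3 were lost with passage in the fit and without 5ar3 at passage 4. Fdps makes farnesyl pyrophosphate. It was at 5.32, 5.64, 5.60 and 8.63 CPM in ES cells, at 23.7, 20.6 and 33.6 CPM in 5ar1 and at 15.7 to 26.1 CPM in the other 9 libraries, so no ES library overlapped. Its log2 fold change was 2.04 in 5ar1 (SE 0.22, edgeR adjusted p = 6.22e-07), 1.64 in 5ar3, 1.44 in AFX6 and 1.75 in AF32. A same-strand gene model, Gm43738, covers 26.7% of the exon bases of Fdps, and how the counting treated shared reads is not given in the sources used here.

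Hmgcs1 makes HMG-CoA, the substrate of the rate-limiting step. ES cells had 275, 381, 309 and 313 CPM. 5ar1 had 819, 767 and 1325 CPM, 5ar3 had 1862, 845 and 621, AFX6 had 897, 1041 and 754, and AF32 had 1272, 1007 and 1062. All of these exceeded ES cells, and the libraries of 5ar3 spanned the widest range. The log2 fold change was 1.60 in 5ar1, 1.79 in 5ar3 (SE 0.29, edgeR adjusted p = 4.13e-05), 1.49 in AFX6 and 1.80 in AF32.

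Mvd decarboxylates mevalonate pyrophosphate, and it was at 28.0, 35.8, 31.4 and 48.1 CPM in ES cells. It reached 126, 93.2 and 191 CPM in 5ar1, with a log2 difference of 1.93 (SE 0.27, edgeR adjusted p = 1.01e-05), and 61.96 to 147 CPM in the other 9 libraries. The ES libraries were again the lowest. Nsdhl, a demethylating dehydrogenase that acts after lanosterol, was at 45.0, 51.0, 40.3 and 46.6 CPM in ES cells and at 84.7, 135 and 242 CPM in 5ar1. Its log2 fold change there was 1.75 (SE 0.26, edgeR adjusted p = 1.71e-05), with the passage 14 library far above the other 2. Lss, which cyclises squalene epoxide to lanosterol, was at 62.2, 72.6, 59.1 and 84.1 CPM in ES cells and at 185, 211 and 151 CPM in AFX6, where its log2 fold change was 1.39 (SE 0.20, edgeR adjusted p = 1.18e-05). It was at 136 to 256 CPM in the other 9 libraries, all above ES cells.

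The other 5 sterol enzymes departed from this. Ebp, the sterol isomerase encoded on the X chromosome, was lower than in ES cells. It was at 44.9, 40.1, 40.9 and 41.0 CPM in ES cells, at 16.8, 15.5 and 27.4 in 5ar1, at 12.01, 11.4 and 10.2 in 5ar3, at 15.2, 16.4 and 16.9 in AFX6 and at 34.8, 33.8 and 23.6 in AF32. No other library reached the ES range. It was called lower in 5ar1 (-1.07), 5ar3 (-1.90, SE 0.20, edgeR adjusted p = 3.59e-07) and AFX6 (-1.37), and in AF32 it was -0.44 (edgeR adjusted p = 0.0517).

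Fdft1, which encodes squalene synthase, was called lower only in AF32. It was at 87.8, 87.6 and 74.3 CPM there and at 141, 155.5, 135 and 141 CPM in ES cells, a log2 difference of -0.78 (SE 0.21, edgeR adjusted p = 0.00373). On total counts it was -0.51 (edgeR adjusted p = 0.0753), and Ctsb on the other strand covers 18.3% of its exon bases. In direct comparisons with AF32, Fdft1 was called higher in 5ar1, by 0.88 (SE 0.22, edgeR adjusted p = 0.00987), but not in 5ar3 (edgeR adjusted p = 0.0638) or AFX6 (edgeR adjusted p = 0.309), and without 5ar1 at passage 14 that call was lost. Idi1, the isopentenyl isomerase, was called higher only in AFX6 (0.72, edgeR adjusted p = 0.0169), a call lost with passage in the fit and without AFX6 at passage 8 or ES cells at passage 15, and Mvk, mevalonate kinase, only in 5ar1 (1.05, edgeR adjusted p = 0.00157). Tm7sf2, a sterol reductase, was called higher in 5ar1, AFX6 and AF32 and was 0.30 in 5ar3 (edgeR adjusted p = 0.174). Its call in AFX6, at 0.48, was lost in 7 of 15 alternative settings.

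Against ES cells the regulators moved little apart from Insig1, with log2 fold changes of -0.49 to 0.67. Srebf2, which encodes SREBP2, had line means of 118 CPM in ES cells and 131.5 to 188 CPM in the other lines, and it was called higher only in 5ar3 (0.67, edgeR adjusted p = 0.0285), a call lost in 6 of 15 alternative settings. Scap was not called in any of the 10 comparisons, with line means of 19.2 to 25.7 CPM. Insig2 was called higher than in ES cells in both EpiSC lines (0.59 in AFX6 and 0.58 in AF32). Stard4, a carrier that moves cholesterol between membranes, followed the enzymes: its mean was 56.9 ± 6.77 CPM (SD, n = 4) in ES cells and 121 to 151 CPM in the other lines, and it was called higher in all 4, by 1.09 to 1.40. Srebf1, which encodes SREBP1, was called higher than in ES cells in AF32 (0.46, edgeR adjusted p = 0.0249) and lower in AFX6 (-0.49, edgeR adjusted p = 0.021). The first call was lost in 3 of 15 alternative settings and the second in 6 of 15. Srebf1 lies on chromosome 11, where the median of all genes was 0.29 in AF32 and -0.10 in AFX6 against ES cells. Between the EpiSC lines Srebf1 moved more, at -0.95 in AFX6 against AF32.

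The 9 fatty acid genes were mixed. Acaca, the rate-limiting acetyl-CoA carboxylase, was at 41.6, 71.3, 61.7 and 78.0 CPM in ES cells and 101 to 168 CPM in every other library, and it was called higher in all 4 lines, by 0.83 to 1.20. Fads2, the delta-6 desaturase of polyunsaturated fatty acids, was at 46.9, 68.0, 55.9 and 86.6 CPM in ES cells. It was at 191, 180.5 and 187 CPM in 5ar3 and at 337, 318 and 324 CPM in AF32, the highest line. Its log2 fold change against ES cells was 1.53 in 5ar3 (SE 0.19, edgeR adjusted p = 2.65e-06) and 2.34 in AF32 (SE 0.19, edgeR adjusted p = 2.21e-08). Fads1, the delta-5 desaturase next to it on chromosome 19, was called higher in all 4 lines, by 0.49 to 1.28. Elovl6, which lengthens palmitate, was called lower than in ES cells in 5ar1 (-0.61), 5ar3 (-0.73) and AFX6 (-0.72), and each of these calls was lost on total counts. Acss2, the cytosolic acetyl-CoA synthetase, was called lower in AFX6 (-0.84) and AF32 (-0.75). The call of Acss2 in AF32 was lost on total counts and without AF32 at passage 14. Fasn, fatty acid synthase, was called higher in 5ar1 (0.79) and AF32 (0.96), and Acly, ATP citrate lyase, in no line. The call of Fasn in 5ar1 was lost without the ES library of passage 12, in which it was at 260.5 CPM against 499.8 to 529 in the other 3, and also without 5ar1 at passage 14. Its call in AF32 was lost without AF32 at passage 15. Fasn, Acaca and Acly lie on chromosome 11, where the median of all genes against ES cells was 0.29 in AF32 and -0.09 in 5ar1. The part of that shift in their values was not tested. Of the 33 genes only Insig1 and Scd1 were called lower in all 4 lines, where 19.0% of all genes were, and with passage in the fit these were Insig1 and Acss2.

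Between the FS lines, 4 of the 33 genes were called, where 3.88% of all genes were: Insig1 and Scd1 lower in 5ar1 (2.02% of all genes), and Tm7sf2 and Ebp higher (1.86%). These 4 were also the only ones of the 33 whose libraries did not overlap between the lines, which held for 18.7% of all genes. Tm7sf2 was at 38.7, 34.0 and 54.3 CPM in 5ar1 and 22.5, 21.1 and 26.9 CPM in 5ar3, a log2 difference of 0.85 (SE 0.20, edgeR adjusted p = 0.0241). For Ebp, whose values are given above, it was 0.83 (SE 0.20, edgeR adjusted p = 0.0282). For both genes every 5ar1 library was above every 5ar3 library. Without 5ar1 at passage 14, Tm7sf2 gave 0.63 (edgeR adjusted p = 0.155) and Ebp gave 0.53 (edgeR adjusted p = 0.18), and neither was called. Tm7sf2 was also lost without 5ar3 at passage 4 or 5, and Ebp without any 1 of the 3 5ar3 libraries, whereas Insig1 and Scd1 were called in every alternative setting. Of the 18 sterol enzymes 15 had a positive log2 fold change, with a median of 0.40 against -0.01 over all genes, and 16 were not called. Without 5ar1 at passage 14 the median over all 33 genes fell from 0.25 to 0.04. Vps51 overlaps 12.1% of the exon bases of Tm7sf2 on the same strand.

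Sterol enzymes were unevenly high within 5ar1. At passage 14 it had the highest level of the line for 17 of the 18 enzymes (94.4%), where this held for 35.7% of all tested genes. Its median ratio to the mean of passages 10 and 12 was 1.78 for the 18 enzymes and 0.989 for all genes. The ratio was 2.30 for Hsd17b7, 2.20 for Nsdhl, 2.11 for Mvk and 2.04 for Cyp51, and Dhcr7, the last enzyme of its branch, was the exception at 0.871. Srebf2, at 0.612, went the other way in that library. The ratio of Insig1 was 0.581, but from only 16 counts at passage 14, against 34 and 19 at passages 10 and 12. The coefficient of variation between libraries had a median over the 18 enzymes of 36.8% in 5ar1, 24.7% in 5ar3, 16.2% in AFX6, 9.54% in AF32 and 15.98% in ES cells. For genes with a mean of at least 10 CPM it was 16.02, 16.3, 9.58, 8.65 and 16.7%. These comparisons rest on 1 library and were made after its values were seen, so no test was made.

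**Figure D4:**
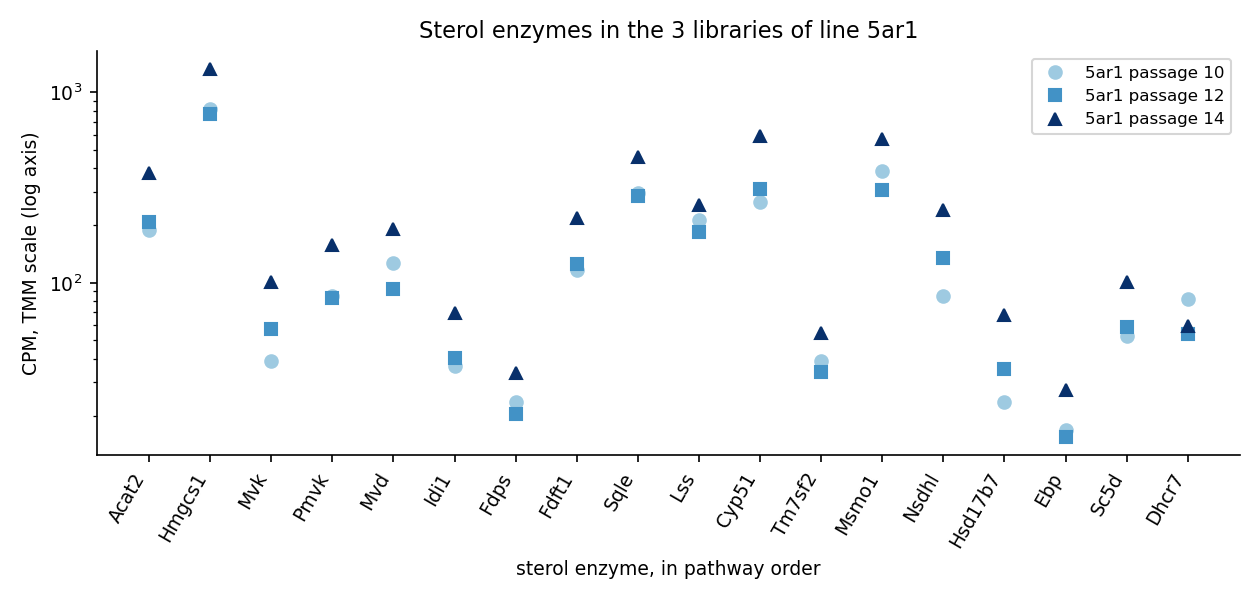
Level of each of the 18 sterol enzymes, in pathway order, in the 3 libraries of FS line 5ar1 (CPM, log axis), with 1 symbol for each passage. The passage 14 symbol is the highest for 17 of the 18, with Dhcr7 as the exception.

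Between the EpiSC lines, 9 genes were called, where 6.61% of all genes were: Insig1 and Scd1 higher in AFX6 (2.24% of all genes) and 7 lower (4.38%). The libraries of 16 of the 33 genes did not overlap between the lines, where this held for 33.9% of all genes. The 7 were Ebp and 6 genes of fatty acid metabolism or its control: Srebf1, Acly, Scd2, Elovl6, Fads1 and Fads2. Of the 9 fatty acid genes 5 were called lower in AFX6 and 1 higher, with a median log2 difference of -0.64 against 0 over all genes. Fads2 was at 177, 167 and 145 CPM in AFX6, below the AF32 values given above, and its log2 fold change was -0.998 (SE 0.20, edgeR adjusted p = 0.00654). Srebf1 was at 74.6, 71.7 and 70.1 CPM in AFX6 and 121, 137.5 and 160.0 CPM in AF32, a log2 difference of -0.95 (SE 0.18, edgeR adjusted p = 0.00406). The libraries of these genes do not overlap between the lines, and those of Srebf1 in AFX6 lie within 5 CPM of each other.

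Elovl6 was at 165, 148 and 163 CPM in AFX6 and 283, 307 and 328 CPM in AF32, a log2 difference of -0.95 (SE 0.22, edgeR adjusted p = 0.0128). Fads1 was at 155, 139.5 and 148.5 CPM in AFX6 and 243, 232.5 and 289 CPM in AF32, at -0.79 (SE 0.18, edgeR adjusted p = 0.0131). For both genes every AF32 library was above every AFX6 library. Acly was at 686, 701 and 516.5 CPM against 950.1, 975 and 1033 CPM, at -0.64 (SE 0.18, edgeR adjusted p = 0.044). Scd2 was at 1494, 1194 and 1317 CPM against 2041, 2053 and 2062 CPM. Ebp, at -0.93 (SE 0.20, edgeR adjusted p = 0.00896), was the only sterol enzyme called between these lines. Fasn missed the threshold at -0.78 (SE 0.30, edgeR adjusted p = 0.14), and Acaca had means of 140.4 and 140.5 CPM.

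Several of the 7 lower calls were fragile. With passage number in the fit none of the 7 was called, and on total counts 2 were, while Insig1 and Scd1 were called in both fits. AFX6 was sampled at passages 5 to 12 and AF32 at 13 to 15, so passage and line cannot be told apart. The calls of Acly and Scd2 were lost when any 1 of the 6 libraries was left out, and without AFX6 at passage 8 the 9 calls fell to 5. Srebf1, Acly, Fasn and Acaca lie on chromosome 11. There the median of 1396 tested genes was -0.42 in AFX6 against AF32, with 25.0% called, and in AF32 against ES cells it was 0.29. Less the chromosome median, the differences were -0.53 for Srebf1, -0.21 for Acly, -0.35 for Fasn and 0.42 for Acaca. The part of this shift of chromosome 11 in their values was not tested. Elovl6, Fads1, Fads2, Scd2 and Ebp lie on other chromosomes, whose medians were 0.03 on chromosomes 3 and 19 and -0.04 on X.

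**Figure D5:**
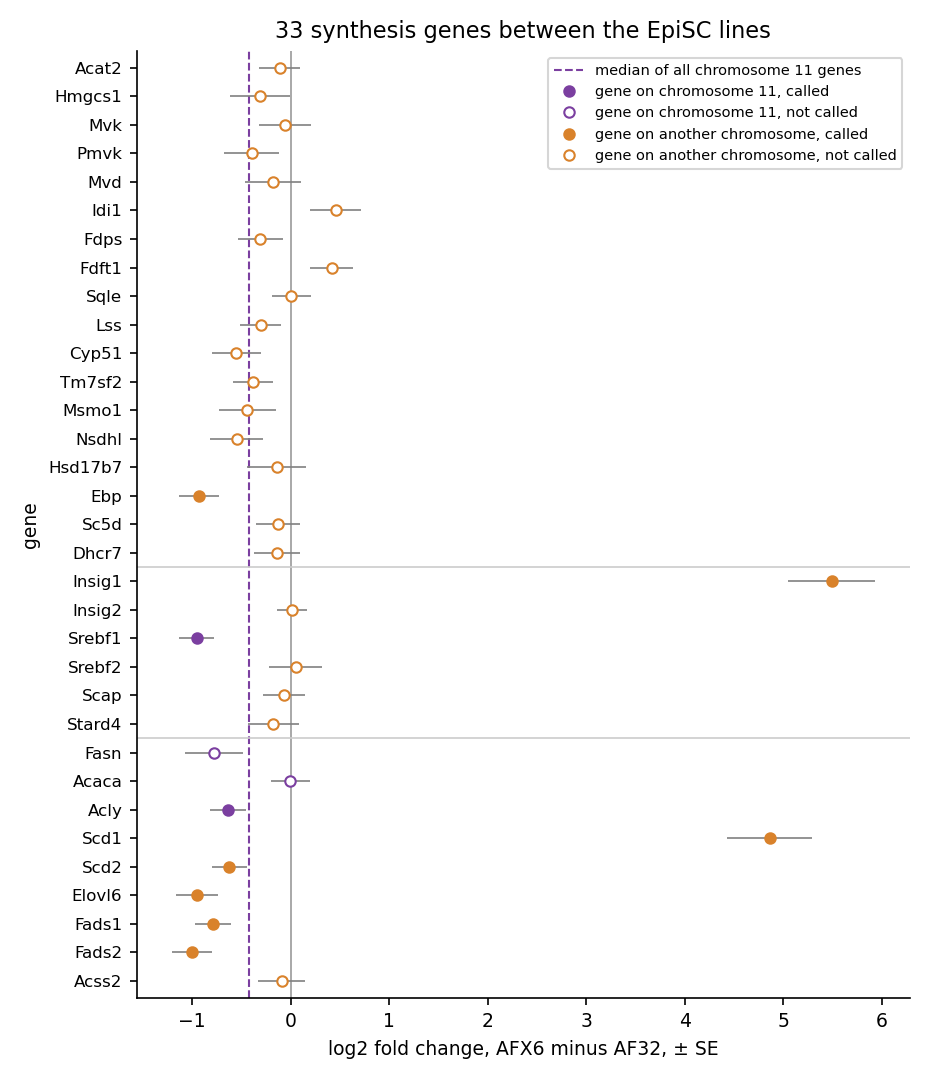
Log2 fold change of AFX6 against AF32 for each of the 33 genes, with bars of 1 SE, called genes filled, purple points for genes on chromosome 11 and a dashed line at the median of all genes on that chromosome, -0.42. Insig1 and Scd1 stand at 5.49 and 4.86, and the 7 called genes on the other side lie between -0.62 and -0.998.

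Between FS cells and EpiSCs, few of the 33 genes were called. In 5ar1, 27 of the 33 had a positive log2 fold change against AFX6 and 15 against AF32. In 5ar3 these were 20 against AFX6 and 8 against AF32. The medians were 0.34, -0.05, 0.05 and -0.25 in that order, where those of all genes were 0.02 to 0.03. Without 5ar1 at passage 14 the first median was 0.11. In 5ar1 against AFX6, 3 genes were called lower (1.85% of all genes) and 0 higher (2.27%), where 4.13% were called in all: Insig1 (-6.61), Scd1 (-6.02) and Idi1 (-1.29, SE 0.26, edgeR adjusted p = 0.00973). Idi1 was at 36.4, 40.1 and 69.5 CPM in 5ar1 and at 107, 136 and 113 CPM in AFX6, without overlap, and its call was lost without 5ar1 at passage 12. In 5ar3 against AFX6, 1 gene was called (9.11% of all genes), Insig2, lower in 5ar3 at -0.54 (SE 0.15, edgeR adjusted p = 0.0315), a call lost in 8 of 14 alternative settings. Of all genes, 5.51% were called higher there and 3.59% lower. In 5ar1 against AF32, 5 genes were called (17.2% of all genes, 7.77% higher and 9.40% lower), with Fdft1 higher and Idi1, Ebp, Elovl6 and Fads2 lower. Of these 5 calls, 4 were lost on total counts. In 5ar3 against AF32, 6 genes were called (16.5% of all genes, 7.80% higher and 8.67% lower): Insig1 (5.17) and Scd1 (3.67) higher, and Ebp (-1.46), Elovl6 (-0.95), Fads2 (-0.81) and Insig2 (-0.53) lower. That call of Insig2 was also lost in 8 of 14 alternative settings. The shares called in the last 3 comparisons were 3.03%, 15.2% and 18.2% of the 33 genes, near or below the shares of all genes. Libraries did not overlap for 10 of the 33 genes in 5ar1 against AFX6 (22.7% of all genes), 10 in 5ar1 against AF32 (36.7%), 5 in 5ar3 against AFX6 (26.6%) and 16 in 5ar3 against AF32 (36.7%). On total counts the median of all genes moved to 0.18 in 5ar1 against AFX6, 0.14 in 5ar1 against AF32 and 0.12 in 5ar3 against AFX6, and the share of called genes that were higher rose from 55.1 to 71.0% in the first and from 45.3 to 56.1% in the second.

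Per kilobase of exon, averaged over the 16 libraries, Scd2 was the most abundant of the 33 at 286 CPM, followed by Hmgcs1 at 184 and Acly at 152. Acss2 at 2.05, Scap at 3.03 and Fdps at 4.12 were the least abundant. The length used counts every annotated exon base of a gene, 10163 for Acss2 and 4208 for Fdps, so this order depends on the annotation. The ratio of the highest to the lowest line mean was 230 for Insig1 and 157 for Scd1, between ES cells and 5ar1 in both cases. For the other 31 genes it ranged from 1.34 for Scap to 5.07 for Fads2.

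Genes of related lipid pathways were counted in the same fits, in which 29.4 to 32.1% of all genes were called higher and 27.0 to 28.9% lower against ES cells. Counts near those shares are no result about a list. Of 17 genes of sterol uptake, transport and efflux, 6 or 7 were called higher and 6 to 8 lower against ES cells in each line. Abcg1, a sterol exporter, was called higher in 5ar1 than in 5ar3 (1.01, SE 0.25, edgeR adjusted p = 0.0316) and in AFX6 than in AF32 (0.97, edgeR adjusted p = 0.0466). Abca1, which exports cholesterol to apolipoproteins, was lower in AFX6 than in AF32 (-2.46, SE 0.54, edgeR adjusted p = 0.00982), as were Stard3 and Tmem97. Of 9 tested genes of SREBP processing, 3 were called higher and 2 lower against ES cells in each FS line and in AFX6, and 4 higher and 1 lower in AF32. Only Erlin2 was called between AFX6 and AF32 (-0.63, edgeR adjusted p = 0.00486), and none was between 5ar1 and 5ar3. Of 6 other tested genes of cholesterol synthesis, 1 was called higher and 1 lower in 5ar1 against ES cells, 2 and 0 in 5ar3, and 2 and 1 in each EpiSC line, with medians of -0.09 in 5ar1, 0.14 in 5ar3, -0.07 in AFX6 and 0.02 in AF32, below those of the 18 enzymes. Of these 6 genes, 0 were called between 5ar1 and 5ar3 or between AFX6 and AF32. Of 23 tested genes that make or elongate fatty acids, 7 to 10 were called higher and 7 to 9 lower against ES cells. Acss1 was lower in 5ar1 than in 5ar3 (-1.10, edgeR adjusted p = 0.0412) and Mcat higher in AFX6 than in AF32 (1.01, edgeR adjusted p = 0.00366). Fatty acid oxidation, which breaks fatty acids down in mitochondria, was mostly lower than in ES cells: of 16 tested genes 10 or 11 were called lower and 2 or 3 higher against ES cells in each line, with medians of -0.77 in 5ar1, -1.002 in 5ar3, -0.85 in AFX6 and -0.89 in AF32 against 0.01 to 0.02 over all genes. Between AFX6 and AF32, Cpt1c (0.74, edgeR adjusted p = 0.0336) and Acadvl (0.85, edgeR adjusted p = 0.00356) were called higher in AFX6.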

How the data were processed

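The values are whole-number read counts per gene, deposited by the authors as 1 table. The submitters' processing notes name Trim Galore, TopHat2 2.1.0, featureCounts 1.5.0 and the mm10 build, and per the labels' protocols the libraries were directional. The annotation and the strand setting are not given in the sources used here. The table has 6 further columns that match no sample's labels and were not used. The genes and lists were chosen with earlier results of these data known.

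Counts were fitted in R 4.3.3 with edgeR 4.0.16 (robust quasi-likelihood, TMM, filterByExpr with minimum count 10 and minimum total 15), with 1 mean per line over all 16 libraries, and 10 pairs of lines were compared. The fit was tested on simulated data. SE is the log2 fold change divided by the root of F. Coordinates and exon lengths come from GENCODE M21, which holds 33860 of the 34042 gene IDs. Within a line no 2 libraries were duplicates. Values are printed in full for genes called between the FS lines or between the EpiSC lines, and for the 3 with the largest change each way against ES cells. Alternatives were DESeq2 1.42.0 size factors and Wald test, total counts, mitochondrial rRNA left out, other filters (none, or a mean of at least 1 CPM), only the lines compared, passage as a covariate, and each library left out. Values that rest on few counts, such as those of Insig1 in 5ar1 and AF32, carry the largest counting error.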

Additional observations from a re-analysis of the deposited data

Results flagged for a closer look

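In ES cells, the only line with 4 libraries, 4 of the 33 genes had 1 library far from the other 3, and chance flags about 1 in 20 groups. Fdps was at 8.631 CPM at passage 20, against 5.321 to 5.645 in the others. Tm7sf2 was at 25.91 CPM, Fasn at 260.5 CPM and Acly at 584.8 CPM at passage 12, against 16.31 to 17.52, 499.8 to 528.6 and 831.1 to 876.3 in the others. That library has a mitochondrial ribosomal RNA share of 40.1%, and the part of this share in the 3 values was not tested.

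The change from ES cells differed between the FS lines for 4 genes, by the edgeR test of the 2 lines. The difference, 5ar1 minus 5ar3, was -6.295 for Insig1, -4.828 for Scd1, 0.8501 for Tm7sf2 and 0.8303 for Ebp. It differed between the EpiSC lines for 9 genes. The difference, AFX6 minus AF32, was 5.49 for Insig1, 4.862 for Scd1, -0.9982 for Fads2, -0.9526 for Srebf1, -0.9486 for Elovl6, -0.9301 for Ebp, -0.7881 for Fads1, -0.6358 for Acly and -0.6203 for Scd2.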

How the results depend on the processing

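Of 127 calls of the 33 genes over the 10 comparisons, 88 were kept in every alternative, 39 were lost in at least 1 and 0 changed sign. Passage as a covariate lost 24, total counts 18, only the lines compared 8 and no filter 4. DESeq2 size factors, DESeq2's Wald test, leaving out mitochondrial rRNA and a mean of at least 1 CPM lost 0. The causes were not tested.

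In 5ar1 against 5ar3, the 4 calls became 2 with only the lines compared or with passage, and 2 to 6 when a library was left out (2 without 5ar3 passage 4 or 5). In 5ar1 against AFX6, 3 became 2 to 5 (5 without 5ar1 passage 10). In 5ar1 against AF32, 5 became 1 on total counts and 2 to 5 leaving out a library (2 without 5ar1 passage 12 or AF32 passage 13 or 14). In 5ar3 against AFX6, 1 became 0 on total counts, with no filter or with only the lines compared, 2 with DESeq2's Wald test or passage, and 0 to 1 leaving out a library (0 without any 1 AFX6 library). In 5ar3 against AF32, 6 became 3 with passage. In AFX6 against AF32, 9 became 4 on total counts, 2 with passage, and 5 to 7 leaving out a library (5 without AFX6 passage 8). Against ES cells, total calls stayed within 1.5 times, but the lower calls went from 6 to 3 in AFX6 with passage and from 4 to 2 in AF32 on total counts.

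Over all genes, the 720 calls of 5ar1 against 5ar3 ranged from 286 (without 5ar1 passage 14) to 1549 (without 5ar1 passage 10), the 766 of 5ar1 against AFX6 from 333 to 1356, the 1690 of 5ar3 against AFX6 from 855 to 2294, the 1227 of AFX6 against AF32 from 580 to 2276, the 3186 of 5ar1 against AF32 from 2105 to 3859 and the 3056 of 5ar3 against AF32 from 1550 to 3747. No paired analysis was possible because the labels give passages and no replicate numbers that pair the lines.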
